A study of Homo sapiens with 11 samples.

Results

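The genes described here are 45 genes of mitosis and of the G2/M transition of the cell cycle, taken by gene symbol from the joined table of read counts, which lists 38557 genes. All 45 were found in the table and all 45 passed the filter on low counts. They comprise 10 kinases and their regulators, 3 cyclins, 8 kinetochore and centromere genes, 3 further genes of the chromosomal passenger complex, 5 kinesins, 6 genes of condensin and chromosome structure, 6 spindle and cytokinesis genes and 4 genes of anaphase.

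The RNA came from MOLM-13 cells, an established line of human acute myeloid leukemia with a rearrangement of KMT2A, the chromatin regulator whose fusion proteins depend on Menin. Cells received DMSO as vehicle (4 libraries), 1 µM MI-503, an inhibitor of Menin (4 libraries), or the same dose of MI-503 plus 100 nM PR-957, which blocks PSMB8, a catalytic subunit of the immunoproteasome (3 libraries, numbered 1, 2 and 4), each for 72 hours. The comparisons ask what Menin inhibition does to these genes and what PR-957 adds to it. No library with PR-957 alone was analysed here, so the second step measures PR-957 on top of MI-503 only, and all groups are treatments of 1 cell line.

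Entry into mitosis is driven by CDK1 bound to cyclin B. Aurora and Polo-like kinases then organise the spindle, condensin compacts the chromosomes, and the kinetochore attaches them to microtubules while the spindle checkpoint holds back the anaphase-promoting complex. Transcription of these genes peaks late in the cell cycle, and many of their promoters hold a cell cycle homology region (CHR), bound by the MuvB core complex, and CCAAT boxes, bound by NF-Y.

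The promoters of the 4 members with the highest length-scaled level in DMSO and of TOP2A, the member with the smallest change in the combination when all libraries are used, are shown because they hold these motifs. Each is the 250 bases before the RefSeq start site (GRCh38.p14), written 5′ to 3′ on the strand of the gene. Capitals mark TTTGAA or TTCGAA (called a CHR below) and CCAAT on either strand, none of which overlap each other here. These are matches of sequence at any position, and binding was not tested. SMC4, the core ATPase of condensin, starts after chr3:160399400-160399649 (plus strand), CKS2, the small subunit bound to CDK1, after chr9:89310945-89311194 (plus strand), CDC20, the activator of the anaphase-promoting complex, after chr1:43358731-43358980 (plus strand), and PLK1, the Polo-like kinase, after chr16:23678639-23678888 (plus strand). TOP2A, the topoisomerase that untangles sister chromatids, lies on the minus strand, with its upstream window at chr17:40417897-40418146.
SMC4: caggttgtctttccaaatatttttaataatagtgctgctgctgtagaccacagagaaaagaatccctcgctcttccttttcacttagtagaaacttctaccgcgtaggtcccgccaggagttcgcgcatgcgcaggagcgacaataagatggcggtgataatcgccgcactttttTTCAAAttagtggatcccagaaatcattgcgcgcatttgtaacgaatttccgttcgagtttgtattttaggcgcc
CKS2: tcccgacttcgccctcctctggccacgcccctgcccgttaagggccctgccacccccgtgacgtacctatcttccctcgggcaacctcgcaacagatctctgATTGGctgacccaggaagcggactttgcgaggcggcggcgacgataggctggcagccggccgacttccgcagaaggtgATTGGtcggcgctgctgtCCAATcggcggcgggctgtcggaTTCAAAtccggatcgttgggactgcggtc
CDC20: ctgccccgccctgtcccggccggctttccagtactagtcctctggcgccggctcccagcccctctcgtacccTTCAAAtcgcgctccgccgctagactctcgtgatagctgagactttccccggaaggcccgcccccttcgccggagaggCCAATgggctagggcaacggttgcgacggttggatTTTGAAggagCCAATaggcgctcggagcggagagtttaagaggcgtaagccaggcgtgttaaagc
PLK1: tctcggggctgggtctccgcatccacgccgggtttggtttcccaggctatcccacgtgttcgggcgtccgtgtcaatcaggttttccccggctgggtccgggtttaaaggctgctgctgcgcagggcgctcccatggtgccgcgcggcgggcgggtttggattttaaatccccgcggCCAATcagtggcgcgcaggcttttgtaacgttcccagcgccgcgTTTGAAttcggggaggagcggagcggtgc
TOP2A: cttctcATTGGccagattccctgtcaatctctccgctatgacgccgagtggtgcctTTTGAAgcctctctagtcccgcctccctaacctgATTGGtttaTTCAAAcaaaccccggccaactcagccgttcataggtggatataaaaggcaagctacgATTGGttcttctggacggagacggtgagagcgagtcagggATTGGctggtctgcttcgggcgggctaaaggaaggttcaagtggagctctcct

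SMC4 held 1 CHR and no CCAAT box before its start. CKS2 held 1 CHR and 3 CCAAT boxes, CDC20 held 2 of each, PLK1 held 1 of each, and TOP2A held 2 CHR matches and 4 CCAAT boxes. In PLK1 and CKS2 the CHR began 29 bases before the start.

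RefSeq promoter windows of 300 bases (250 before and 50 after the start) were found for 40 of the 45 members. AURKA, TTK, BIRC5, TPX2 and UBE2C had no entry. A CHR on either strand was present in 30 of the 40 members (75.0%), against 19.5% of the 27305 genes with a RefSeq promoter window. CCAAT was present in 31 members (77.5%), against 39.7% of all genes, and both motifs together in 23 members (57.5%), against 7.85% of all genes. Over the 10694 genes that were also tested for expression, the shares were 16.0% for the CHR, 42.6% for CCAAT and 6.69% for both. Among 31 genes of DNA replication, the nearest other cell cycle group, 26 had a window, of which 2 (7.69%) held a CHR and 18 (69.2%) held CCAAT. A match to the CHR sequence was thus a common feature of the mitotic windows and not of the replication windows, whereas CCAAT was common in both. The changes were also set beside the motifs, with no test. The median log2 fold change in the combination against DMSO was -0.67 over the 30 members with a CHR and -0.69 over the 10 without. It was -0.65 over the 21 members with 2 or more CCAAT boxes and -0.72 over the 19 with fewer. A CHR was held by 7 of the 10 members not called in MI-503 and by 23 of the 30 called.

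**Figure D1:**
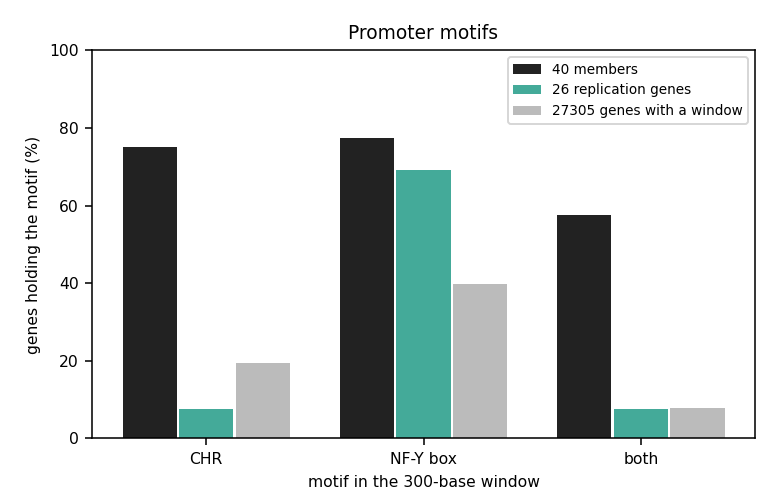
Percentage of genes whose RefSeq promoter window of 300 bases holds a CHR (TTTGAA or TTCGAA), the NF-Y box (CCAAT) or both, for 40 members (black), 26 replication genes (green) and all 27305 genes with a promoter window (grey). The members hold a CHR in 75.0%, the replication genes in 7.69% and all genes in 19.5%.

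Libraries held 18891243 to 41153974 counts, and the 45 members took up 0.629% to 0.700% of them in DMSO, 0.550% to 0.579% in MI-503 and 0.379% to 0.472% in the combination, so these ranges did not overlap between the groups. Levels are given as CPM, counts divided by the TMM-scaled library size. Myeloid genes such as CEBPA (a mean of 769 CPM in DMSO), SPI1 (224 CPM) and FLT3 (324 CPM) were expressed, and no count fell on the B cell gene MS4A1 or the epithelial gene KRT5, where 3 counts correspond to 0.0729 to 0.159 CPM. Nothing in the labels states whether replicates came from separate cultures, so the p-values measure the spread between these libraries. In a bulk measurement, fewer cells in G2 and mitosis cannot be told apart from less of these RNAs per cell.

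Replicate 1 of the combination stood apart within its group. It was the highest of the 3 combination libraries for 37 of the 45 members, which was so for 39.4% of the 10039 tested genes that averaged 5 CPM or more, and replicate 2 was the lowest for 41 members (28.9% of those genes). The median member was 0.27 higher on the log2 scale in replicate 1 than in the mean of replicates 2 and 4. Of the members, 42 of 45 were higher there, as were 7458 of 14683 tested genes. The replication genes went the other way. Their median was 0.23 lower in replicate 1 (log2 difference -0.23), which was the lowest of the 3 libraries for 23 of 31 of them (41.5% of the 10039 genes). Its part in the results was not tested, and values with and without it are given below. In DMSO, replicate 2 was the lowest of 4 libraries for 37 of 45 members (34.9% of those genes).

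**Figure D2:**
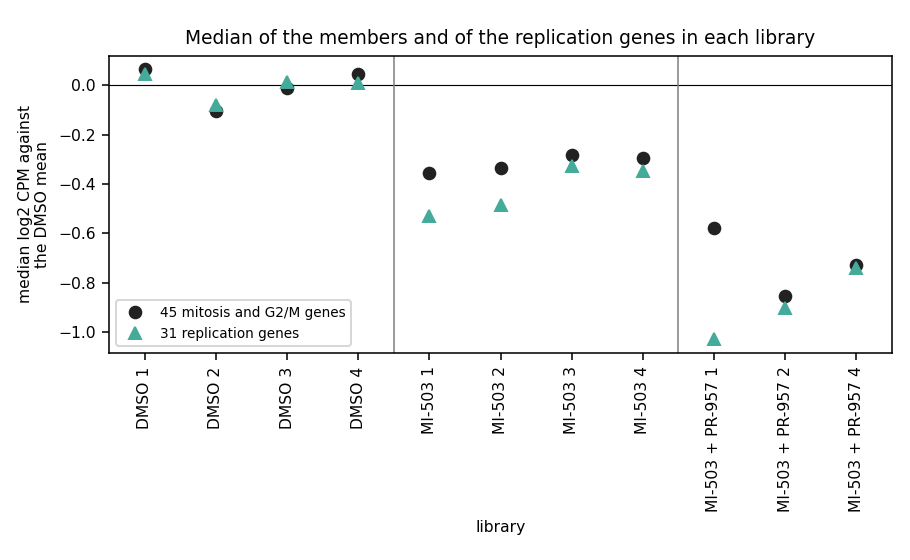
Median log2 CPM against the DMSO mean in each of the 11 libraries, for the 45 mitosis and G2/M genes (circles) and 31 replication genes (triangles); the horizontal line marks the DMSO mean. The 2 medians are farthest apart in combination replicate 1, at -0.58 and -1.03.

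The combination lowered all 45 members relative to DMSO, and 35 of them were already lower with MI-503 alone. In the combination the log2 fold changes ran from -1.16 for SMC4 to -0.45 for TOP2A, with a median of -0.70, while the median over all 14683 tested genes was 0.01. With MI-503 alone the median was -0.32 (all tested genes -0.03), and from MI-503 to the combination it was -0.41 (all tested genes 0.00). At least 2-fold falls were called for 3 members (CDK1, MAD2L1 and SMC4), and for 5 without combination replicate 1 (also PLK1 and CCNB2).

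By edgeR's quasi-likelihood test at a Benjamini-Hochberg adjusted p under 0.05, MI-503 lowered 35 of the 45 members and raised 0, where 29.3% of all tested genes were called lower and 22.0% higher. With upper-quartile scaling the calls over all genes turned from 4307 lower and 3235 higher to 3356 lower and 3968 higher, and 30 members were called lower and 0 were higher. The log2 change with MI-503 was below 0 for 44 members (53.3% of tested genes), and 0 members were called at least 2-fold lower (1.34% of tested genes). The combination lowered all 45 against DMSO (32.8% of tested genes called lower and 31.7% higher), 3 of them at least 2-fold (3.34% of tested genes). Without combination replicate 1 the 2-fold count was 5 (3.90% of tested genes). Against MI-503, the combination lowered 42 (23.8% of tested genes called lower and 23.6% higher, 1.40% at least 2-fold lower). No member was called higher in any of the 3 comparisons by edgeR, DESeq2 or limma-voom, and at an unadjusted p under 0.05 by edgeR the count was also 0. The libraries of the compared groups did not overlap for 36 members in MI-503 against DMSO (29.1% of tested genes had all treated libraries below all controls), for 44 in the combination against DMSO (31.2%) and for 41 in the combination against MI-503 (23.8%). Without combination replicate 1, the counts called lower were 37, 45 and 45, and the medians were -0.28, -0.81 and -0.54. Of the 14751 genes tested there, 3990, 4664 and 4059 were called lower. Without DMSO replicate 2 the member counts were 40, 45 and 42 (4217, 4728 and 3514 of 14638 tested genes). The comparisons share libraries and are not independent of each other. The members were chosen with earlier results of these data known, so their counts describe the list and are no separate support.

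**Figure D3:**
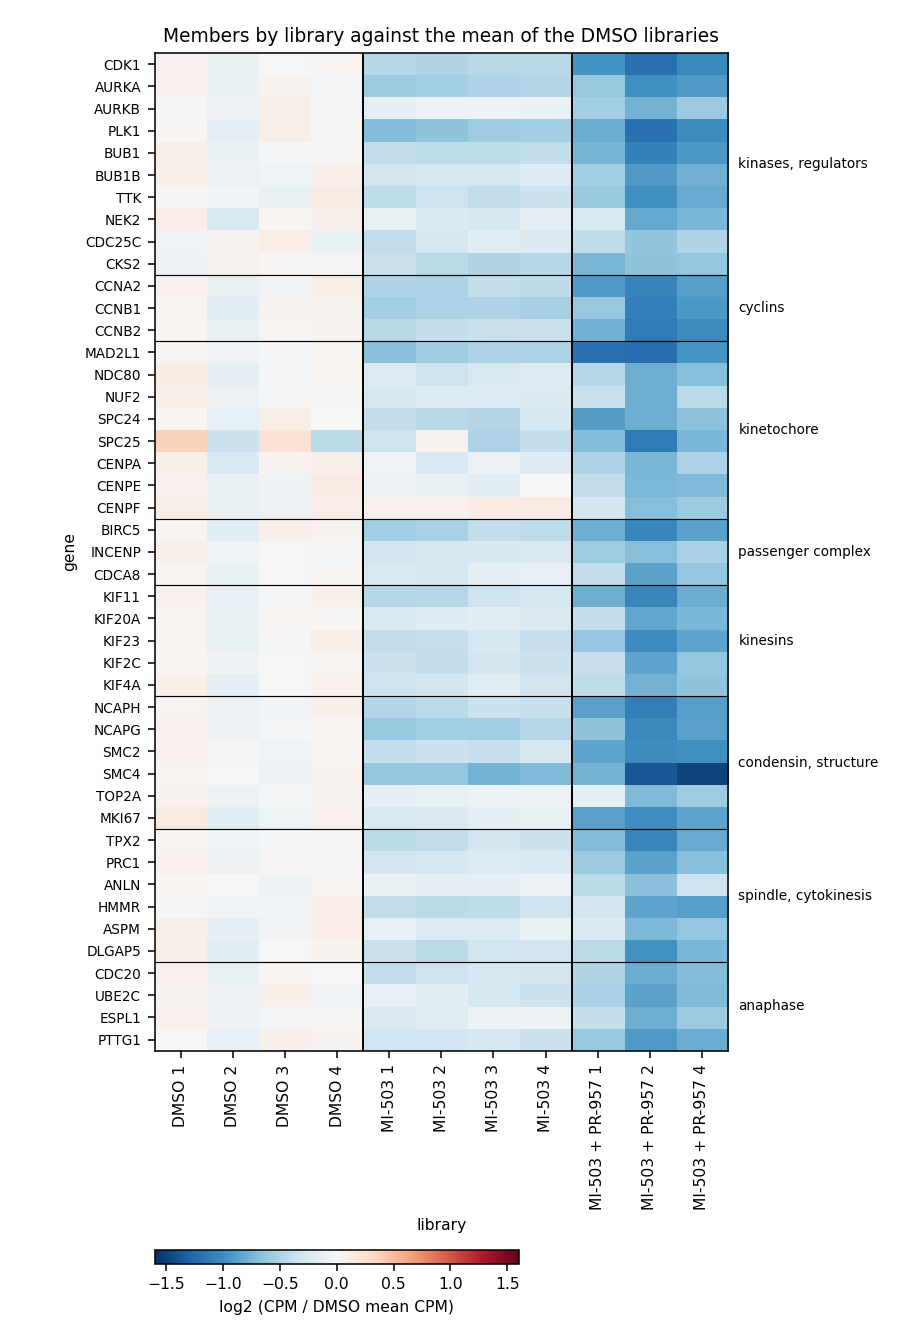
Heat map of the 45 members (rows, by class) in the 11 libraries (columns), coloured by log2 of CPM over the mean CPM of the 4 DMSO libraries. Every member is below the DMSO mean in each of the 3 combination libraries; CENPF is the 1 member above it in all 4 MI-503 libraries.

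Among the kinases and their regulators, 8 of 10 were called lower with MI-503, all 10 in the combination against DMSO and 9 of 10 in the combination against MI-503, with medians of -0.39, -0.75 and -0.39. CDK1, the kinase that starts mitosis, was measured at 146, 129, 138 and 143 CPM in the DMSO libraries, 101, 99.5, 102 and 102 CPM in the MI-503 libraries and 71.5, 60.8 and 68.3 CPM in the combination libraries. The 3 groups did not overlap, and its log2 fold change was -0.46 ± 0.05 (SE, adjusted p = 1.04e-06) with MI-503 and -1.05 ± 0.06 (SE, adjusted p = 6.31e-11) in the combination against DMSO. PLK1 was measured at 227, 199, 236 and 223 CPM in the DMSO libraries, 137, 141, 149 and 151 CPM in the MI-503 libraries and 128, 97.0 and 109 CPM in the combination libraries, again with no overlap. Its log2 fold change was -0.61 ± 0.07 (SE, adjusted p = 1.52e-06) with MI-503, the largest fall of the kinases at this step, and -0.37 ± 0.08 (SE, adjusted p = 6.65e-04) from MI-503 to the combination.

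The Aurora kinases gave unequal values with MI-503, a difference between genes that was not tested. AURKA, which builds the spindle poles, changed by -0.52 ± 0.07 (SE, adjusted p = 5.66e-06) on the log2 scale with MI-503, whereas AURKB, the catalytic subunit of the passenger complex, changed by -0.10 ± 0.05 (SE, adjusted p = 0.0969) and was not called. AURKB was measured at 74.5, 69.1, 78.4 and 72.8 CPM in the DMSO libraries, 66.8, 69.7, 69.6 and 68.3 CPM in the MI-503 libraries and 50.1, 43.5 and 49.1 CPM in the combination libraries, so that the MI-503 range overlapped that of DMSO and the combination stood below both. From MI-503 to the combination AURKB fell by 0.52 ± 0.05 (SE, adjusted p = 9.07e-07) on the log2 scale and AURKA by 0.29 ± 0.07 (SE, adjusted p = 0.0036).

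NEK2, a centrosome kinase, was not called with MI-503, at 46.4, 36.0, 43.8 and 45.5 CPM in the DMSO libraries, 39.7, 36.2, 35.4 and 38.7 CPM in the MI-503 libraries and 36.1, 24.3 and 25.9 CPM in the combination libraries. Its combination replicate 1 lay among the MI-503 values, so these groups overlapped, and it was the 1 member whose combination libraries overlapped those of DMSO. CDC25C, the phosphatase that activates CDK1, changed least in this class, by -0.49 ± 0.09 (SE, adjusted p = 1.54e-04) in the combination against DMSO. CDC25C was measured at 10.4, 11.2, 11.7 and 10.1 CPM in the DMSO libraries, 8.23, 8.95, 9.53 and 9.20 CPM in the MI-503 libraries and 8.19, 6.97 and 7.73 CPM in the combination libraries, and its step from MI-503 to the combination was not called (-0.22 ± 0.09, adjusted p = 0.0532), although the libraries did not overlap. CKS2 was measured at 70.4, 77.6, 76.0 and 75.7 CPM in the DMSO libraries, 58.5, 55.4, 53.7 and 54.4 CPM in the MI-503 libraries and 45.1, 48.0 and 48.7 CPM in the combination libraries, without overlap between groups, a change of -0.67 ± 0.05 (SE, adjusted p = 4.58e-09) against DMSO. The checkpoint kinases BUB1 (-0.90 ± 0.06) and TTK (-0.78 ± 0.07) and the checkpoint protein BUB1B (-0.72 ± 0.07) fell in the combination against DMSO and were also called at both single steps.

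The cyclins, which activate CDK1, fell together at every step. All 3 were called in each comparison, with medians of -0.45, -0.95 and -0.50 in MI-503 against DMSO, the combination against DMSO and the combination against MI-503. CCNB2 fell most, at 80.9, 72.6, 80.4 and 81.9 CPM in the DMSO libraries, 58.2, 60.9, 61.8 and 61.9 CPM in the MI-503 libraries and 46.4, 36.2 and 38.8 CPM in the combination libraries, a log2 fold change of -0.95 ± 0.07 (SE, adjusted p = 3.16e-09) in the combination against DMSO. With all libraries CCNB1 fell least, at 168, 144, 170.0 and 170.0 CPM in the DMSO libraries, 111, 115, 116 and 113 CPM in the MI-503 libraries and 107, 76.2 and 86.1 CPM in the combination libraries, or -0.85 ± 0.09 (SE, adjusted p = 1.33e-07). CCNA2, which acts from S phase to early mitosis, changed by -0.95 ± 0.06, and in none of the 3 did the groups overlap. Without combination replicate 1, CCNA2 (-0.95) fell less than CCNB1 (-0.99).

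Of the kinetochore and centromere genes, 4 of 8 were called with MI-503 (median -0.24), against all 8 in the combination against DMSO (median -0.61) and 7 in the combination against MI-503 (median -0.45). MAD2L1, the checkpoint protein that inhibits CDC20, fell most of the class, at 110.4, 103, 105 and 111 CPM in the DMSO libraries, 67.7, 72.1, 76.3 and 75.4 CPM in the MI-503 libraries and 46.7, 46.3 and 56.0 CPM in the combination libraries. The groups were fully separate, with -0.56 ± 0.06 (SE, adjusted p = 5.64e-07) for MI-503 and -1.11 ± 0.06 (SE, adjusted p = 1.95e-10) for the combination against DMSO.

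CENPF, a large protein of the outer kinetochore that is made in G2, was the 1 member whose mean was higher with MI-503 than in DMSO. It was measured at 449, 385, 392 and 453 CPM in the DMSO libraries, 442, 439.6, 457 and 462 CPM in the MI-503 libraries and 342, 262 and 281 CPM in the combination libraries. The MI-503 libraries lay within or just above the DMSO range, a log2 fold change of 0.10 ± 0.07 (SE, adjusted p = 0.254), and all 3 combination libraries lay below both, at -0.61 ± 0.08 (SE, adjusted p = 7.05e-06) against MI-503. Without combination replicate 1, CENPF was called higher with MI-503 (0.14, adjusted p = 0.0102). Leaving out that library changes no MI-503 or DMSO count, only the filter, the scaling and the shared estimate of spread. The median over all tested genes then moved from -0.03 to 0.02 with MI-503. The genes called higher went from 3235 of 14683 to 4141 of 14751. CENPE, the kinetochore motor, was measured at 67.7, 59.6, 61.0 and 70.6 CPM in the DMSO libraries, 60.9, 59.5, 57.4 and 64.5 CPM in the MI-503 libraries and 49.1, 39.2 and 39.7 CPM in the combination libraries. Its change was -0.10 ± 0.07 (SE, adjusted p = 0.269) with MI-503, with overlapping libraries, and -0.49 ± 0.08 (SE, adjusted p = 6.11e-05) from MI-503 to the combination.

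CENPA, the histone H3 variant that marks the centromere, was measured at 33.3, 26.5, 32.7 and 33.4 CPM in the DMSO libraries, 30.2, 26.6, 29.5 and 27.4 CPM in the MI-503 libraries and 22.4, 18.9 and 22.5 CPM in the combination libraries. It was not called with MI-503 (-0.15 ± 0.08, adjusted p = 0.11), and the combination lay below both other groups. In the Ndc80 complex, which binds microtubules, NDC80, NUF2 and SPC24 were called at every step. NUF2 changed least in the class, at 60.8, 53.7, 56.3 and 58.0 CPM in the DMSO libraries, 47.6, 49.0, 49.3 and 48.6 CPM in the MI-503 libraries and 44.7, 33.3 and 42.3 CPM in the combination libraries, or -0.50 ± 0.07 (SE, adjusted p = 1.47e-05) in the combination against DMSO. NDC80 changed by -0.62 ± 0.08 and SPC24 by -0.78 ± 0.07.

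SPC25, the remaining subunit, had the lowest level of all members, at 2.56, 1.56, 2.32 and 1.47 CPM in the DMSO libraries, 1.57, 2.06, 1.40 and 1.51 CPM in the MI-503 libraries and 1.23, 0.902 and 1.19 CPM in the combination libraries. The annotation places its exons on 2 contigs, with 17.3% of the bases shared with NOSTRIN, so that its low level is uncertain. Per length, SPC25 reached 0.65 RPKM (CPM divided by the exon length in kilobases) in DMSO against 18.7 RPKM for its partner SPC24. The length used for SPC25 was 3050 bases over both contigs, of which 1707 lie on chromosome 2. Its RPKM would be higher with the shorter length, so the size of the gap to SPC24 is uncertain. The combination was called lower than DMSO, by -0.82 ± 0.23 (SE, adjusted p = 0.0048), while neither single step was called.

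The chromosomal passenger complex corrects faulty attachments and directs cytokinesis. BIRC5 (survivin), INCENP and CDCA8 (borealin) were called lower in each of the 3 comparisons, without overlap between groups. BIRC5 fell most, at 127, 109, 131 and 129 CPM in the DMSO libraries, 84.4, 86.4, 95.1 and 93.8 CPM in the MI-503 libraries and 72.3, 60.2 and 68.7 CPM in the combination libraries, or -0.88 ± 0.07 (SE, adjusted p = 9.38e-09) in the combination against DMSO. INCENP, the scaffold of the complex, fell least, at 189.6, 171, 180.1 and 177 CPM in the DMSO libraries, 145, 148, 148 and 151 CPM in the MI-503 libraries and 121, 112 and 125 CPM in the combination libraries, or -0.59 ± 0.05 (SE, adjusted p = 8.30e-09). CDCA8 changed by -0.60 ± 0.08. The length-scaled ratio of AURKB to BIRC5 was 0.943 ± 0.045 in DMSO, 1.21 ± 0.064 in MI-503 and 1.13 ± 0.025 in the combination (SD, n = 4, 4 and 3). Neither treated group overlapped DMSO in this ratio. The ratio of CDCA8 to INCENP was 1.00 ± 0.034, 1.06 ± 0.047 and 0.986 ± 0.13 in the same order, and both treated groups overlapped DMSO. Ratios of other member pairs were also computed, of which some overlapped DMSO and some did not.

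The kinesins, motors of the spindle and midzone, were all called lower in each comparison, with medians of -0.34, -0.62 and -0.41. KIF11 (Eg5), which pushes the spindle poles apart, fell most, at 236, 206, 222 and 239 CPM in the DMSO libraries, 164, 165, 179 and 188 CPM in the MI-503 libraries and 132, 108 and 129.7 CPM in the combination libraries, or -0.87 ± 0.07 (SE, adjusted p = 1.16e-08) in the combination against DMSO. KIF4A, a chromosome motor, fell least, at 69.7, 59.2, 65.8 and 68.9 CPM in the DMSO libraries, 52.3, 53.6, 57.7 and 53.6 CPM in the MI-503 libraries and 49.6, 38.9 and 42.2 CPM in the combination libraries, or -0.59 ± 0.07 (SE, adjusted p = 2.26e-06). KIF2C, a microtubule depolymerase, changed by -0.59 ± 0.08, KIF20A by -0.62 ± 0.08 and KIF23, both midzone motors, by -0.80 ± 0.07. KIF2C was the kinesin whose MI-503 and combination libraries overlapped, through combination replicate 1.

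Of the 6 condensin and chromosome structure genes, 5 were called lower with MI-503 and all 6 in the other 2 comparisons, with medians of -0.37, -0.92 and -0.52. SMC4 was the member with the largest change, at 763, 733, 693 and 766 CPM in the DMSO libraries, 480.4, 479, 438 and 454 CPM in the MI-503 libraries and 437, 287 and 264 CPM in the combination libraries. Combination replicate 1 sat just under the MI-503 range and replicates 2 and 4 far below it, so that the log2 fold change against DMSO was -1.16 ± 0.12 (SE, adjusted p = 1.71e-07) with replicate 1 and -1.40 without it. The other condensin members were closer together, with SMC2 at -0.94 ± 0.05, NCAPH at -0.95 ± 0.06 and NCAPG at -0.83 ± 0.07 in the combination against DMSO. Of the exon bases of NCAPG, 35.3% overlap LCORL, so that its counts are uncertain.

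With all libraries, TOP2A was the member that changed least in the combination, at 610.4, 552, 580.1 and 614 CPM in the DMSO libraries, 534, 543, 553 and 554 CPM in the MI-503 libraries and 528, 362 and 398 CPM in the combination libraries. It was not called with MI-503 (-0.11 ± 0.08, adjusted p = 0.274), and combination replicate 1 lay just below the lowest MI-503 library while replicates 2 and 4 lay well below it. Its log2 fold change against DMSO was -0.45 ± 0.09 (SE, adjusted p = 2.34e-04), and -0.61 without replicate 1, where ANLN (-0.46) changed least. MKI67, which coats mitotic chromosomes, had the largest fall of all members from MI-503 to the combination with all libraries, and without combination replicate 1 SMC4 (-0.78) fell slightly more than MKI67 (-0.76). MKI67 was measured at 1029.9, 830.3, 894 and 981 CPM in the DMSO libraries, 783, 794, 836 and 862 CPM in the MI-503 libraries and 513, 467 and 519.6 CPM in the combination libraries. That step was -0.71 ± 0.07 (SE, adjusted p = 2.53e-07), after -0.19 ± 0.06 (SE, adjusted p = 0.0144) with MI-503, where the libraries overlapped DMSO.

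Of the 6 spindle and cytokinesis genes, 4 were called lower with MI-503, all 6 in the combination against DMSO and 5 in the combination against MI-503, with medians of -0.31, -0.65 and -0.33. TPX2, the activator of AURKA on the spindle, fell most, at 261, 243, 249.7 and 255 CPM in the DMSO libraries, 188, 193, 206 and 198 CPM in the MI-503 libraries and 155, 122 and 145 CPM in the combination libraries, or -0.84 ± 0.06 (SE, adjusted p = 5.72e-09) in the combination against DMSO. ANLN (anillin), a scaffold of the contractile ring, fell least, at 80.3, 78.3, 74.2 and 80.8 CPM in the DMSO libraries, 72.1, 71.1, 70.6 and 73.6 CPM in the MI-503 libraries and 58.6, 49.4 and 62.5 CPM in the combination libraries, or -0.46 ± 0.06 (SE, adjusted p = 5.08e-06). With MI-503 alone ANLN was not called (-0.13 ± 0.06, adjusted p = 0.0721), although its libraries did not overlap those of DMSO.

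ASPM, a spindle pole protein, was also not called with MI-503, at 188, 159.7, 169.6 and 190.5 CPM in the DMSO libraries, 161, 152, 152 and 164 CPM in the MI-503 libraries and 151, 107 and 115 CPM in the combination libraries. The MI-503 range overlapped DMSO, with a change of -0.17 ± 0.08 (adjusted p = 0.0938), and the change from MI-503 to the combination was -0.33 ± 0.09 (SE, adjusted p = 0.0061). HMMR, a spindle assembly factor, was measured at 57.1, 56.2, 55.8 and 62.0 CPM in the DMSO libraries, 44.1, 43.3, 43.5 and 45.7 CPM in the MI-503 libraries and 46.7, 32.2 and 31.5 CPM in the combination libraries. Combination replicate 1 exceeded every MI-503 library, and the step from MI-503 was not called (-0.24 ± 0.10, adjusted p = 0.054), whereas without replicate 1 it was -0.50 (adjusted p = 1.58e-07). With the replicate number as a block it was also called (-0.28, adjusted p = 0.0309). PRC1, which bundles midzone microtubules, changed by -0.70 ± 0.06 and DLGAP5, a spindle protein, by -0.68 ± 0.09 in the combination against DMSO.

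At anaphase, 3 of 4 genes were called lower with MI-503 and all 4 in the other 2 comparisons, with medians of -0.27, -0.66 and -0.43. PTTG1 (securin), the inhibitor of separase, fell most, at 46.2, 42.2, 49.2 and 48.2 CPM in the DMSO libraries, 37.1, 37.6, 38.4 and 36.5 CPM in the MI-503 libraries and 30.6, 24.7 and 26.7 CPM in the combination libraries, or -0.75 ± 0.07 (SE, adjusted p = 5.16e-08) in the combination against DMSO. ESPL1 (separase) fell least, at 89.9, 81.0, 84.6 and 86.5 CPM in the DMSO libraries, 72.5, 75.0, 80.1 and 80.7 CPM in the MI-503 libraries and 65.6, 49.8 and 57.3 CPM in the combination libraries, or -0.56 ± 0.07 (SE, adjusted p = 2.73e-06). ESPL1 was not called with MI-503 (-0.15 ± 0.07, adjusted p = 0.0657), although the libraries did not overlap. CDC20 was measured at 205, 180.0, 201 and 194 CPM in the DMSO libraries, 150.0, 155, 160.4 and 159 CPM in the MI-503 libraries and 140.1, 112 and 121 CPM in the combination libraries, without overlap between groups, and changed by -0.65 ± 0.06 (SE, adjusted p = 1.34e-07). UBE2C, the ubiquitin-conjugating enzyme of the anaphase-promoting complex, changed by -0.68 ± 0.07.

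**Figure D4:**
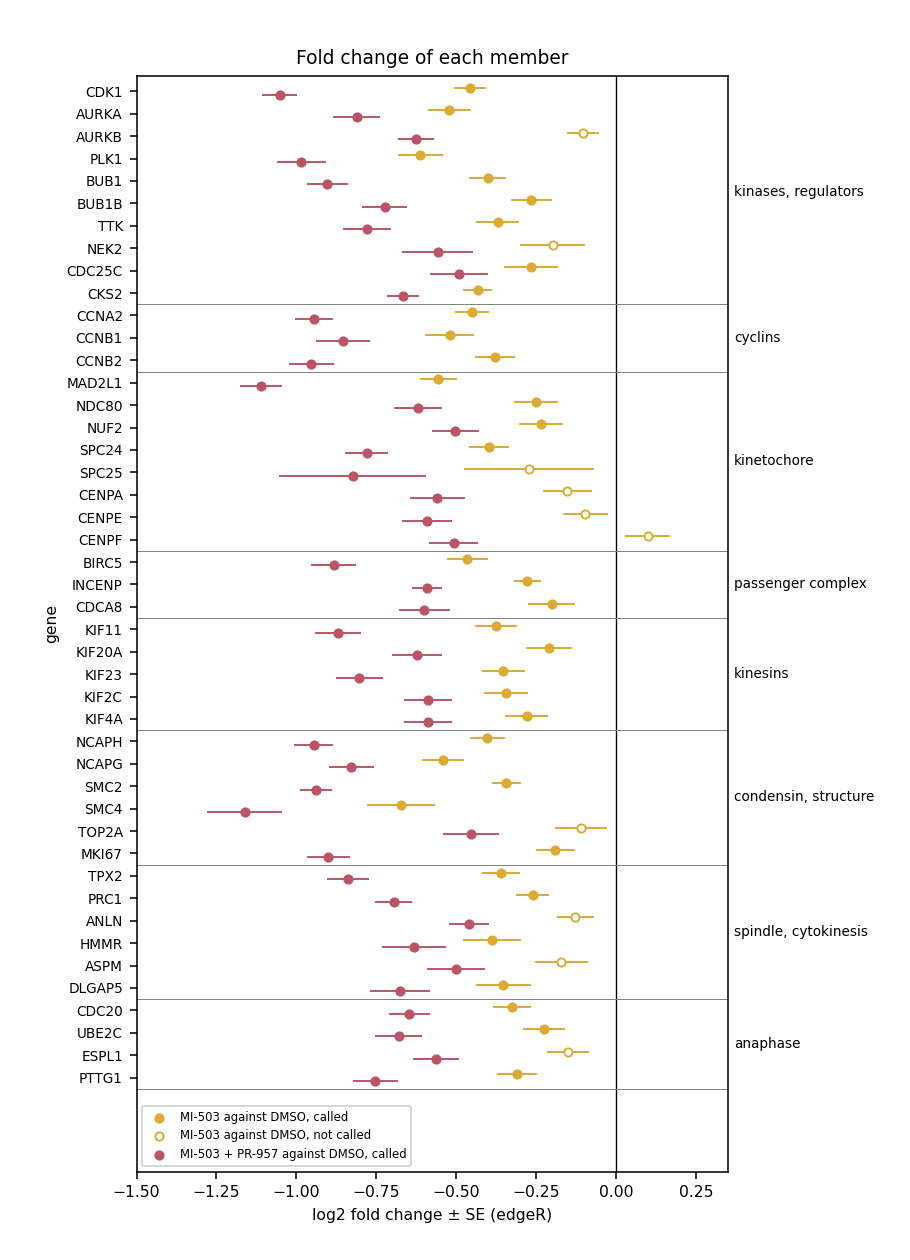
Log2 fold change of each member against DMSO with its standard error (horizontal lines), for MI-503 (yellow) and for MI-503 + PR-957 (red), by class; filled points passed an adjusted p under 0.05 by edgeR. All 45 red points are filled and lie between -1.16 and -0.45, and 10 of the yellow points are open.

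The 10 members not called with MI-503 were AURKB, NEK2, SPC25, CENPA, CENPE, CENPF, TOP2A, ANLN, ASPM and ESPL1, and all of them but SPC25 were called lower in the combination against MI-503. Whether the second step was larger than the first was tested directly, as the difference between the change from MI-503 to the combination and the change from DMSO to MI-503. The 2 steps share the MI-503 libraries. A larger second fall was called for 5 of 45 members, where 16.0% of tested genes were called in that direction, so the share of the members was near this background, and the opposite for 0 members (19.2% of tested genes), also 0 by DESeq2 and limma-voom and 2 by edgeR at an unadjusted p under 0.05. The difference was -0.71 ± 0.12 (SE, adjusted p = 3.12e-04) for CENPF, -0.52 ± 0.11 (SE, adjusted p = 0.0012) for MKI67, -0.42 ± 0.09 (SE, adjusted p = 0.00141) for AURKB, -0.40 ± 0.13 (SE, adjusted p = 0.0205) for CENPE and -0.25 ± 0.08 (SE, adjusted p = 0.0238) for SMC2.

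SMC2 was measured at 199.9, 186, 181 and 194 CPM in the DMSO libraries, 146, 149.6, 147 and 157 CPM in the MI-503 libraries and 106, 95.0 and 96.5 CPM in the combination libraries, with all groups separate. Over the members, the change with MI-503 was a median of 43.1% of the log2 change from DMSO to the combination. The point estimate of the second fall was the larger for 31 of 45. The difference between the steps was below 0 for 6862 of 14683 tested genes. The count called with a larger second fall depended on the combination libraries. It was 24 without replicate 1 (22.8% of tested genes called in that direction), 9 without replicate 4 (20.9%) and 5 without replicate 2 (18.3%), and it was 3 without MI-503 replicate 4 (14.4%). Without combination replicate 1 the point estimate of the difference also changed sign for 9 members, SMC4, HMMR and CCNB1 among them, each towards a larger second fall.

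**Figure D5:**
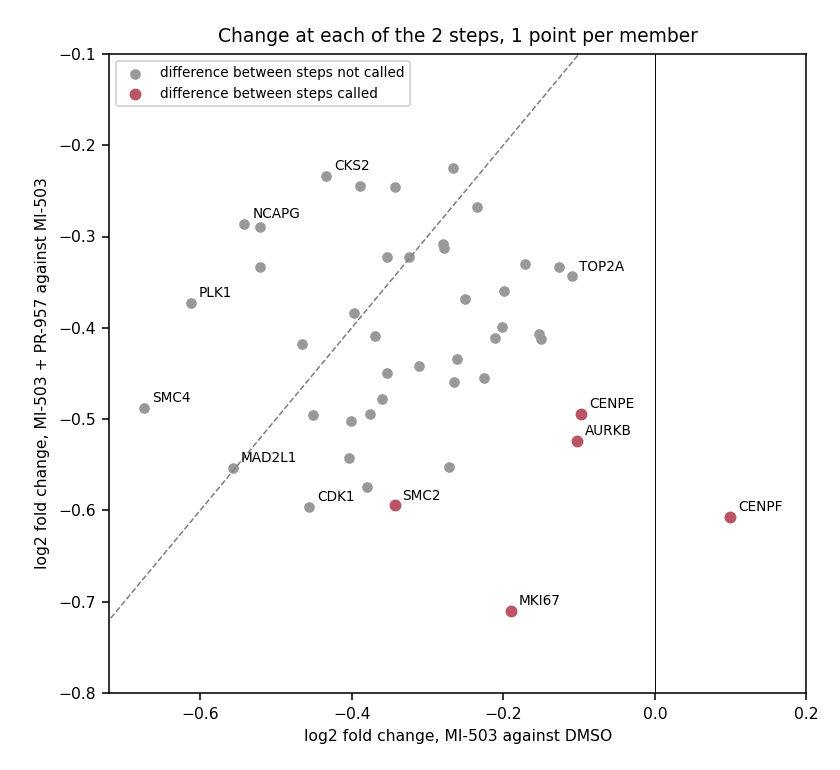
Log2 fold change from MI-503 to MI-503 + PR-957 (vertical) against that from DMSO to MI-503 (horizontal), 1 point per member; the dashed line marks equal change, and red points are the 5 members for which the difference between the steps was called. CENPF lies to the right of 0 on the horizontal axis, and MKI67 is lowest on the vertical axis.

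Per length, the members spanned a wide range in DMSO, with a median of 27.8 RPKM against 4.45 RPKM over all tested genes. SMC4 was highest at 128 ± 5.8 RPKM (SD, n = 4), followed by CKS2 at 122 ± 5.1, CDC20 at 118 ± 6.8, PLK1 at 102 ± 7.3 and TOP2A at 101 ± 5.0 RPKM. Neighbours among these 5 overlapped in their libraries, as did 37 of the 44 neighbouring pairs in the whole order. At the low end stood CENPE at 7.52 ± 0.61, CDC25C at 4.21 ± 0.29 and SPC25 at 0.65 ± 0.18 RPKM, which did not overlap their neighbours. The value of SPC25 is uncertain, because its length was counted over 2 contigs. The spread between libraries was small, with a median coefficient of variation of 5.79% in DMSO, 3.67% in MI-503 and 12.6% in the combination.

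Relatives outside the members gave lesser log2 changes than the members in the combination against DMSO for several pairs, by the point estimates. CDC25B changed by 0.02 ± 0.08 where CDC25C changed by -0.49 ± 0.09, and the general transport motor KIF5B by -0.27 ± 0.05 where KIF11 changed by -0.87 ± 0.07. The condensin II subunits NCAPG2 (-0.39 ± 0.06) and NCAPH2 (-0.60 ± 0.06) stood beside their condensin I counterparts NCAPG (-0.83 ± 0.07) and NCAPH (-0.95 ± 0.06). In contrast, CKS1B (-0.66 ± 0.05) and CKS2 (-0.67 ± 0.05) had nearly equal estimates, and the gaps were also small between KIF2A (-0.55 ± 0.07) and KIF2C (-0.59 ± 0.08), and between TOP2B (-0.33 ± 0.05) and TOP2A (-0.45 ± 0.09). Among the remaining pairs, MAD2L2 changed by -0.95 ± 0.05 where MAD2L1 changed by -1.11 ± 0.06, PLK4 by -0.87 ± 0.09 where PLK1 changed by -0.98 ± 0.08, and BUB3 by -0.46 ± 0.06 where BUB1 changed by -0.90 ± 0.06. The cohesin subunits SMC3 (-0.74 ± 0.05) and SMC1A (-0.63 ± 0.05) stood beside SMC2 (-0.94 ± 0.05) and SMC4 (-1.16 ± 0.12), and the general histone gene H3-3B (-0.22 ± 0.05) beside CENPA (-0.56 ± 0.08). Pairs within the members were AURKA (-0.81 ± 0.07) and AURKB (-0.63 ± 0.06), CCNB1 and CCNB2, and BUB1 and BUB1B. The order within a pair could differ by step. From MI-503 to the combination, NCAPG2 (-0.37 ± 0.06) fell more than NCAPG (-0.29 ± 0.07) by the point estimates. MAD2L2, PLK4, KIF2A and CKS1B also fell more than their member at that step. With MI-503 alone, NCAPH2 (-0.44 ± 0.06) and H3-3B (-0.20 ± 0.04) fell more than NCAPH (-0.40 ± 0.05) and CENPA (-0.15 ± 0.08). The remaining pairs with a relative outside the members kept their order at both steps. The differences between relatives were not tested.

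Further genes of the pathway, listed in part from earlier results of these data, moved mostly with the members. Because of that choice, the counts in this and the next 3 paragraphs describe the lists and are no separate support. Over all tested genes, 29.3% were called lower and 22.0% higher with MI-503. In the combination the shares were 32.8% and 31.7% against DMSO, and 23.8% and 23.6% against MI-503. Of 31 tested genes of the rest of the kinetochore and inner centromere, 25 were called lower with MI-503 and 28 in the combination against DMSO, led by CENPM (-1.24 ± 0.10), SKA2 (-1.21 ± 0.08) and the outer kinetochore gene ZWINT (-0.98 ± 0.06). CENPT, which links the inner centromere to Ndc80, was the exception and rose by 0.33 ± 0.06 in the combination. Of 7 other mitotic kinesins, 5 were called lower with MI-503 and all 7 in the combination against DMSO, with KIF20B at -0.72 ± 0.08 and KIF18B at -0.61 ± 0.05. The exons of KIFC1 and KIF15 are listed on more than 1 contig and both were counted below 1 CPM, so their values are uncertain. The list of transport kinesins, which also holds kinesin light chains and KIF2A, the relative of KIF2C, was mixed. Of its 14 genes, 5 were called lower and 3 higher with MI-503. In the combination against DMSO 2 were called lower, KIF5B (-0.27 ± 0.05) and KIF2A (-0.55 ± 0.07). The 6 called higher included KIF13A (1.33 ± 0.25), KIF3C (1.08 ± 0.20) and KIF1B (0.68 ± 0.09). KIF13A averaged 0.59 CPM and KIF3C 2.55 CPM in DMSO, so the value of KIF13A is also uncertain.

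Of 14 genes of the rest of condensin and of cohesin, 11 were called lower with MI-503 and 12 in the combination against DMSO, led by RAD21, the cleavable ring subunit of cohesin (-0.76 ± 0.06), SMC3 (-0.74 ± 0.05) and CDCA5 (sororin, -0.71 ± 0.05), whereas NIPBL (-0.06 ± 0.05) and WAPL (0.07 ± 0.04), the loader and unloader of cohesin, were not called in any of the 3 comparisons. The anaphase-promoting complex divided. Of its 17 genes, 14 were called lower with MI-503, and in the combination against DMSO 11 were called lower and 2 higher. The ubiquitin-conjugating enzyme UBE2S (-0.89 ± 0.06), the subunit ANAPC11 (-0.76 ± 0.11) and the inhibitor FBXO5 (-0.76 ± 0.07) led the falls, while ANAPC2 (0.22 ± 0.05) and ANAPC4 (0.15 ± 0.05), core subunits, rose.

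Of 11 genes of the switch that controls entry into mitosis, 10 were called lower with MI-503 and 10 in the combination against DMSO. They included the activating phosphatase CDC25A (-1.26 ± 0.07) and the inhibitory kinases PKMYT1 (-0.84 ± 0.11) and WEE1 (-0.79 ± 0.06). Of 26 other spindle and cytokinesis genes, 20 were called lower and 1 higher (TROAP, 0.18, adjusted p = 0.0464) with MI-503, and 21 lower in the combination against DMSO, led by ARHGAP11A (-1.32 ± 0.13), PBK (-1.08 ± 0.07) and DEPDC1 (-1.03 ± 0.09). ARHGAP11A is listed on 4 contigs, so its value is uncertain. NUMA1, a spindle pole organiser, was called higher from MI-503 to the combination (0.17 ± 0.04). Among 15 genes of late cell cycle transcription, 11 were called lower and 2 higher in the combination against DMSO. E2F5 (-1.41 ± 0.18), MYBL2 (B-MYB, -1.11 ± 0.10) and RBL1 (p107, -0.90 ± 0.07) fell most, FOXM1 changed by -0.82 ± 0.05, and the MuvB subunits LIN37 (0.65 ± 0.08) and LIN54 (0.23 ± 0.06) rose.

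All 31 replication genes were called lower with MI-503 (median -0.43) and in the combination against DMSO (median -0.89), and 28 in the combination against MI-503 (median -0.51), with 10 of them at least 2-fold lower than DMSO. Their largest falls were those of GINS2 (-1.39 ± 0.10), MCM10 (-1.31 ± 0.08) and CDC6 (-1.27 ± 0.08), factors of replication origin licensing and firing. Of 4 tested inhibitors of cyclin-dependent kinases, 3 were called lower with MI-503, and in the combination against DMSO 2 were called lower and 1 higher. CDKN1A (p21) changed by -0.43 with MI-503 and by 0.16 ± 0.06 in the combination against DMSO, CDKN2C by -0.79 ± 0.06 and CDKN1B by -0.40 ± 0.06 in the latter. Of 12 tested myeloid maturation markers, all 12 were called higher with MI-503 and 9 in the combination, led by LYZ (4.11 ± 0.30), TLR4 (3.61 ± 0.21) and ITGAX (3.28 ± 0.16), and from MI-503 to the combination 5 were called higher and 4 lower. The part of maturation in the change of the mitotic genes was not tested.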

How the data were processed

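The RNA-seq libraries of MOLM-13 cells comprised 4 DMSO, 4 MI-503 and 3 MI-503 + PR-957 samples, grouped by their titles and numbered by them. The values deposited by the authors were raw counts of fragments per gene, not normalized. Per the file headers, featureCounts 2.0.1 assigned fragments to RefSeq exons on hg38, with strand ignored, and the submitters' processing notes name Trimmomatic 0.39, STAR 2.7.10a and DESeq2. Alignments were filtered before counting by a rule not given in the sources used here. Multi-mapped and multi-overlapping reads were not counted by these settings, so genes that share sequence or exons lose reads. Among the members, 35.3% of the exon bases of NCAPG, 17.3% of SPC25 and 10.8% of PRC1 are shared with other genes, and the values of NCAPG, SPC25 and PRC1 are uncertain for that reason. The joined table matched the single-sample tables in every cell. The authors' own comparison tables (base means, log2 fold changes, standard errors and p-values of the treatments against DMSO) were not used.

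The 45 members and the other gene lists were chosen with earlier results of these data known. Counts were fitted with edgeR 4.0.16 (R 4.3.3), using filterByExpr (minimum count 10, total 15), TMM scaling and quasi-likelihood tests over 11 libraries with 1 term per group, which left 8 residual degrees of freedom, and p-values were adjusted by Benjamini-Hochberg over all 14683 tested genes. The biological coefficient of variation was 6.14%. CPM values used TMM-scaled library sizes (factors 0.956 to 1.06), and RPKM divided them by the exon length in the files. Library totals of 18891243 to 41153974 counts gave 18 or more counts for every member in every library, and limits from counts cover counting error only. Whether replicate numbers pair the samples was checked on deviations from the group means over 10039 genes. For MI-503 and the combination all 3 same-numbered pairs correlated above 0.1 (0.14 to 0.21), while pairs of these groups with different numbers ran from -0.27 to 0.27. For DMSO and MI-503 2 of 4 same-numbered pairs exceeded 0.1 and for DMSO and the combination 1 of 3. Over all groups, same-numbered pairs ran from -0.25 to 0.29 and differently numbered pairs from -0.32 to 0.32. The labels name no shared batch. Values in every library are given for the members with the largest and smallest change of each class in the combination, for members not called where most were, and for genes whose promoter is shown. MKI67 and SMC2 were added after their values were seen. Alternatives were RLE and upper-quartile scaling, other filters, DESeq2 1.42.0, limma-voom (limma 3.58.1), a stricter threshold, fits of only the compared groups, a replicate block, and leaving out each library.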

Additional observations from a re-analysis of the deposited data

Results flagged for a closer look

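In 4 of the 90 sets of 4 libraries tested (45 members in DMSO and in MI-503), 1 library lay farther from the others than Dixon's 95% critical ratio allows, and chance alone gives about 1 in 20. In all 4 cases it was DMSO replicate 2, as the lowest value. CCNB1 was at 144 CPM there (ratio 0.928), CCNB2 at 72.6 CPM (0.842), CENPA at 26.5 CPM (0.895) and KIF20A at 66.7 CPM (0.895). The same library was the lowest of the DMSO libraries for 37 of the 45 members and for 26 of 31 replication genes. This was so for 34.9% of the 10039 tested genes that averaged 5 CPM or more. Its cause was not tested.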

How the results depend on the processing

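The number of members called lower in the combination against DMSO was 45 under all alternatives but 1, where a filter of at least 1 CPM in every library left 44. In MI-503 against DMSO it was 30 with upper-quartile scaling, 31 at an adjusted p under 0.01, 34 with DESeq2 and 38 in the fit of only the groups compared, and in the combination against MI-503 it was 40 at an adjusted p under 0.01 and 43 with DESeq2. With 1 library left out these counts ran from 32 to 40 and from 42 to 45. The count called higher with MI-503 was 0, and it was 1 (CENPF) with no filter, in the fit of only the groups compared and without combination replicate 1, so it ran from 0 to 1 with 1 library left out. Over all tested genes 3583, 4079 and 4141 were called higher in those 3 settings, against 3235 in the main fit. The count with a larger second fall was 5. It was 3 at an adjusted p under 0.01 and ran from 3 to 24 with 1 library left out, and the opposite count ran from 0 to 1. Without combination replicate 1, the median change from MI-503 to the combination was -0.57 for the kinases and -0.64 for condensin and chromosome structure, in place of -0.39 and -0.52, and with any 1 library left out they ran from -0.57 to -0.34 and from -0.64 to -0.48. No member and no class median changed direction in the 3 comparisons of groups, whereas the difference between the steps changed sign for 12 members under some alternative. For single members, 2597 values stayed on the same side of the threshold, 24 lost their call and 31 gained one.

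Deviations of same-numbered libraries correlated at -0.25 to 0.29, with 6 of 10 pairs above 0.1, among them all 3 pairs of MI-503 with the combination. Pairs of libraries with different numbers spanned a similar range, -0.32 to 0.32. With a replicate block, 40 members were called lower with MI-503, 45 in the combination against DMSO, 43 in the combination against MI-503 and 5 with a larger second fall. The block added calls for NEK2, CENPA, ANLN, ASPM and ESPL1 with MI-503 and for HMMR from MI-503 to the combination, and ended none. The cause of these changes was not tested. The depth limits SPC25 most, the member with the lowest count (18).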
